A study of Mus musculus with 56 samples.

Results

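The hepatic serpin A cluster was followed through the day in female mouse liver in mice fed only by day (daytime-restricted feeding, DRF) or only by night (NRF). The members were 10 named genes, Serpina1a, Serpina1b, Serpina1c, Serpina1d, Serpina1e, Serpina3k, Serpina3m, Serpina3n, Serpina6 and Serpina12, out of 25415 genes listed. All 10 were among the 25277 genes that could be tested. They were chosen by family name with their mean levels under DRF and NRF already in view, so differences between the regimens are given as a description, with no p-value. Counts of members past a threshold in that contrast follow from the choice of genes and are not tests. Tests are given for the rhythm within each regimen, for the difference between the rhythms, and for ZT0 against ZT24.

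Serpins are folded in a strained state with an exposed loop that acts as bait for a protease, and an inhibitory serpin traps the protease that cuts it. The liver makes most of the serpins of blood plasma. Mouse Serpina1a to Serpina1e are copies of the gene for alpha-1-antitrypsin, the inhibitor of neutrophil elastase, for which humans have a single gene. Serpina3k, Serpina3m and Serpina3n belong to the antichymotrypsin family, which is likewise expanded in rodents. Serpina6 encodes corticosteroid-binding globulin, which carries glucocorticoids in blood and inhibits no protease, and Serpina12 encodes vaspin, known as an adipokine.

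RNA was sequenced from the flash-frozen livers of 56 female C57BL/6J mice, all 9 weeks old and kept under 12 h of light a day, with no genetic change and no drug in any group. After free feeding, mice had spent 7 days on DRF or on NRF, the reference. Sampling ran every 4 h from ZT0 to ZT24, at 7 times, where ZT (zeitgeber time) counts the hours since the lights came on. With 4 mice per regimen and time, there were 14 groups and 28 libraries per regimen. Each animal was sampled once, so a rhythm here is a pattern over groups of different animals.

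Levels are given as scaled counts, which were recovered from the deposited log-compressed values and correspond roughly to CPM. Recovered counts summed to between 300.5 M and 678.2 M per library, where M is mega. Within groups, the median absolute log2 difference between a pair of libraries lay between 0.09 and 0.28 over 84 pairs, and no library was a copy of another. The summed level of 10 hepatocyte markers was 107512 to 142641 under DRF and 101072 to 163509 under NRF. All 6 lymphocyte markers and all 4 neutrophil markers that could be rebuilt averaged below 1 in both regimens. The summed level of 5 erythroid markers ran from 567 to 2039 under DRF (median 1103) and from 469 to 1351 under NRF (median 740).

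The 10 genes lie on chromosome 12 between bases 103646630 and 104414329 (GRCm38), a stretch of 767.7 kb. Of 28 Serpina genes annotated on this chromosome, 21 were listed. In genome order, Serpina6, Serpina1b, Serpina1d, Serpina1a, Serpina1c, Serpina1e and Serpina12 are on the minus strand, and Serpina3k, Serpina3m and Serpina3n follow on the plus strand. Over the coding sequence, the 10 pairs among the Serpina1 copies were 96.3 to 98.5% identical. The 3 pairs among the Serpina3 genes were 82.8 to 91.2% identical, and the other 32 pairs 54.9 to 61.9%.

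Identity on this scale bears on how reads are assigned. Of all windows of 150 bases, the read length, in the annotated transcripts of Serpina1e, 92.6% occurred in no other gene. Windows were taken over every annotated transcript without weighting by level, so their shares are not those of the sequenced reads. The share was 88.1% for Serpina1b, 76.7% for Serpina1d, 64.9% for Serpina1a and 49.5% for Serpina1c. It was 99.7% for Serpina3k and Serpina3m and 100% for Serpina3n, Serpina6 and Serpina12. The handling of reads that match several copies is not given in the sources used here. Levels of the Serpina1 copies may therefore hold reads of each other. Shared windows were most frequent in Serpina1a, Serpina1c and Serpina1d, but Serpina1e shared windows with every other copy. Under DRF those copies averaged 1752 to 3215 scaled counts per kb, against 154 for Serpina1e. Their reads may thus make up part of the Serpina1e level, which was not tested. Serpina1c also shares 31.5% of its exon bases with B430119L08Rik on the opposite strand, and strand use in counting is not given either. Serpina3k and Serpina3m share 60 exon bases on the same strand.

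The resemblance of the Serpina1 copies extends upstream of their start sites, which is shown here because their levels, given further on, behaved differently between regimens. A block of 90 bases was found in the RefSeq promoter windows of all 5 copies (GRCm38.p6, minus strand), with 80 positions alike in all of them. The block is printed 5′ to 3′ for each copy, with the 10 positions that differ among copies in capitals.
Serpina1a: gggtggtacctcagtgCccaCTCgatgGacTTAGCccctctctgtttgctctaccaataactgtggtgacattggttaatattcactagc
Serpina1b: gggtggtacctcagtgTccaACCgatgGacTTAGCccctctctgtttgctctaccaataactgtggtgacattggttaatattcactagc
Serpina1c: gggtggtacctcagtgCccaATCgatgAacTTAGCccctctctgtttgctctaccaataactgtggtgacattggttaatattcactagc
Serpina1d: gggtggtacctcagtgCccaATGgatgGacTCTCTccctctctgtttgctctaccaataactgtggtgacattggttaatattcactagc
Serpina1e: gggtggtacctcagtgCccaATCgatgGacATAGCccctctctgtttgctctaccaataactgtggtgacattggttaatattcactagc
These blocks lie at chr12:103863625-103863714 for Serpina1a, chr12:103738200-103738289 for Serpina1b, chr12:103904962-103905051 for Serpina1c, chr12:103773634-103773723 for Serpina1d and chr12:103956960-103957049 for Serpina1e. None of the blocks overlaps an annotated exon. The last 55 bases are the same in every copy, and any pair of copies differs at 2 to 7 positions. The end of the block is 62 bases from the RefSeq start site of Serpina1e, against 0 to 11 bases in the other 4 copies. These distances depend on the annotation. In the GENCODE annotation, Serpina1a, Serpina1c and Serpina1d start at bases 103863562, 103904887 and 103773592, farther from their blocks. The GENCODE spans of Serpina1b and Serpina1e contain their blocks. The block of Serpina1e departs from the most frequent base at 1 position, and that of Serpina1d at 5.

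Promoter windows of 300 bases, from 250 bases before the start site to 50 after it, were held for 7 of the 10 genes and were searched on both strands. A C/EBP-type motif, TTGCNNAA, was found in Serpina1a, Serpina1b, Serpina1d, Serpina1e and Serpina12, and in 10.8% of 32851 promoters. The hexamer TGTTCT, part of the glucocorticoid receptor site, was found in all 5 Serpina1 copies and in Serpina3n, and in 18.97% of all promoters. No window held the HNF1 core TTAATNATT (1.47% of promoters) or the STAT5 motif TTCNNNGAA (8.30% of promoters). Matches describe letters in these windows and are not binding sites. Only exact matches were sought, so a missing match does not show that a site for the factor is absent.

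Levels differed widely between members. Per kilobase of exon, Serpina1a, Serpina1b, Serpina1c and Serpina1d led in both regimens. Under DRF, Serpina1b stood first with 3215 ± 236 scaled counts per kb (SD, n = 28), followed by Serpina1d with 2779 ± 261, Serpina1c with 2567 ± 264 and Serpina1a with 1752 ± 134. Serpina3k (1284 ± 427) and Serpina3m (898 ± 92.7) came next. The order ended with Serpina6 at 241 ± 79.99, Serpina1e at 154 ± 49.6, Serpina3n at 115 ± 18.9 and Serpina12 at 0.237 ± 0.112 per kb.

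Under NRF, the order was Serpina1b (3127 ± 256 per kb), Serpina1c (3054 ± 276), Serpina1d (2715 ± 236), Serpina1a (1979 ± 182) and Serpina3k (1823 ± 540). Serpina1e, at 829 ± 474 per kb, then stood beside Serpina3m at 818 ± 155, before Serpina6 at 278 ± 108, Serpina3n at 108 ± 19.8 and Serpina12 at 0.784 ± 0.257. Neighbouring means lay within 1 SD of each other for Serpina1b and Serpina1c, for Serpina1a and Serpina3k, and for Serpina1e and Serpina3m under NRF, and for Serpina1d and Serpina1c under DRF. Levels of Serpina1a to Serpina1d were too deep for the rebuilding of counts to be checked, and the order among them rests on the exon lengths used. For Serpina1b this was 1985 bases, those of the transcripts listed by the authors, and not the 2415 annotated. Its mean over all libraries was 6295 scaled counts with the first length and 41915 with the second.

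**Figure D1:**
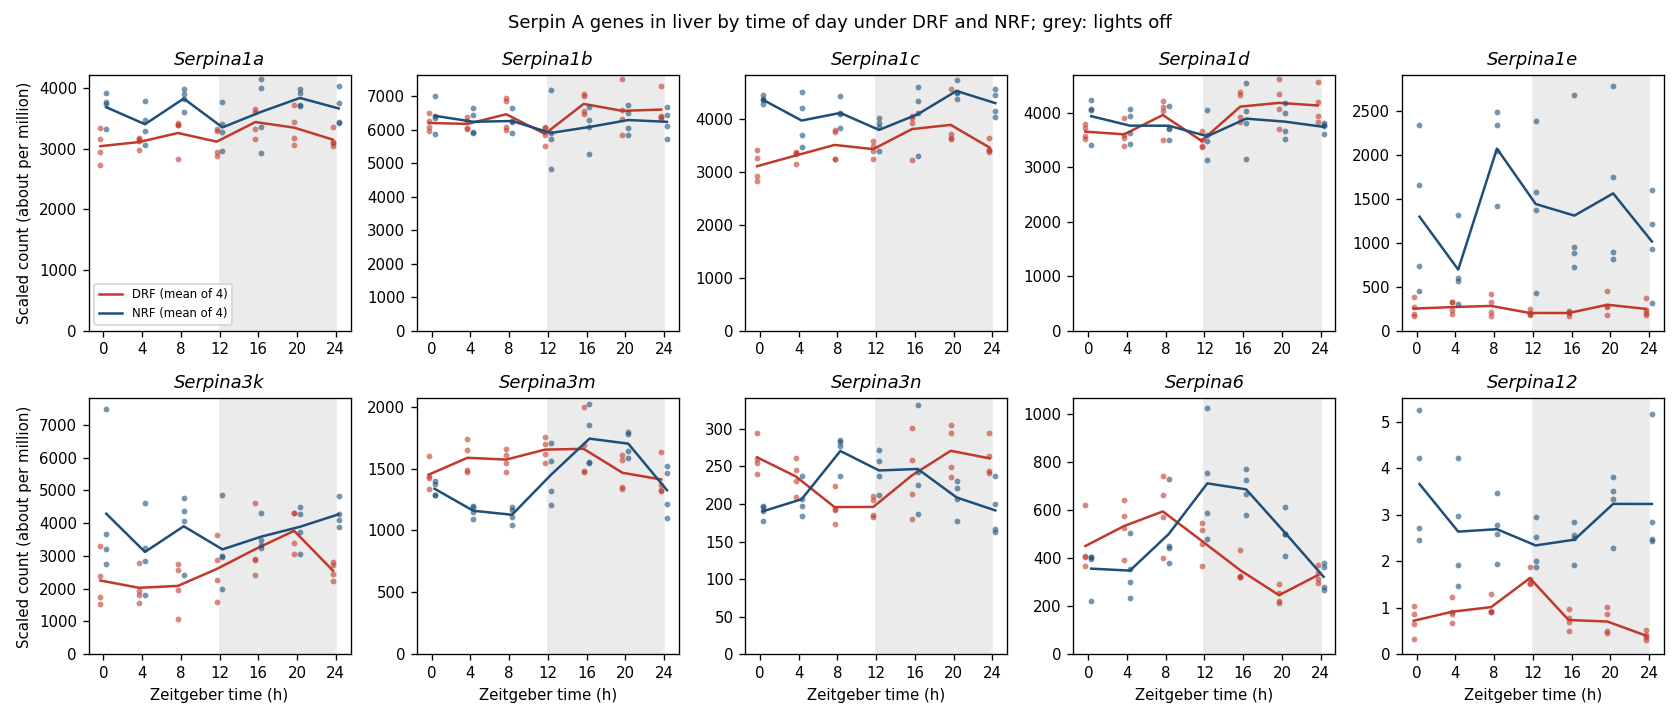
Scaled counts (linear axis from 0, 1 panel per gene) against zeitgeber time in hours, with each point 1 library, lines through the means of 4 libraries under DRF (red) and NRF (blue), and the dark phase in grey. Serpina1e and Serpina12 lie lower under DRF at all 7 times, while the curves of Serpina6 and Serpina3n cross between the regimens.

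Serpina1e (ENSMUSG00000072849, chr12:103946931-103958975) showed the widest gap between regimens. Under DRF its level ran from 163 to 447 scaled counts with a median of 222, and under NRF from 300.1 to 2779 with a median of 1263. The means were 248.5 ± 80.2 and 1341 ± 766 (SD, n = 28), a ratio of 5.39, and the log2 difference (DRF minus NRF, adjusted for rhythm) was -2.29 ± 0.20 (SE). Of the 28 NRF libraries, 25 were above every DRF library, and 3 lay inside the DRF range.

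The NRF livers differed widely among themselves in Serpina1e. At ZT4 the 4 livers had 300.1, 567, 596 and 1313 scaled counts, at ZT8 they had 1412, 2047, 2335 and 2488, and at ZT16 they had 719, 880, 949 and 2685. At ZT0 the values were 451, 739, 1657 and 2338, and at ZT24 they were 314, 933, 1213 and 1595. At ZT8 all 4 livers were above the NRF median of 1263, and at each other time livers below it stood beside livers above it. At ZT12 they ran from 428 to 2385, with 1371 and 1577 between, and those of ZT20 were 815, 896, 1753 and 2779. Under DRF no liver at any time exceeded 447. The SD of log2 levels within groups was 0.44 under DRF and 0.90 under NRF, at the 95.9th and 98.9th percentile of 6678 genes, whose medians were 0.13 and 0.17.

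At single times, the log2 difference for Serpina1e ranged from -2.93 at ZT8 to -1.21 at ZT4. Serpina1e had no detectable rhythm in either regimen (adjusted p = 0.835 under DRF and 0.282 under NRF, limma with Benjamini-Hochberg adjustment over 25277 genes), and its difference in rhythm did not pass (adjusted p = 0.302). In the transcript table, where values are log-compressed scores and folds cannot be read, Serpina1e-201 had a median of 100.05 under DRF and 133.6 under NRF, and Serpina1e-202 had 12.1 and 42.7.

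Among the summed levels per kb of the 5 copies, Serpina1e held 1.47 ± 0.465% (SD, n = 28) under DRF and 6.93 ± 3.71% under NRF. Single NRF livers ran from 1.77 to 13.5%, and DRF livers from 0.977 to 2.67%. The share of Serpina1b was 30.7 ± 1.002% under DRF and 26.8 ± 1.72% under NRF, and that of Serpina1d 26.5 ± 1.34% and 23.2 ± 1.51%. Serpina1a held 16.7 ± 0.790% and 16.9 ± 0.689%, and Serpina1c 24.5 ± 1.31% and 26.1 ± 1.23%. Since the exon length of Serpina1b is uncertain, the shares were also taken without it, and Serpina1e then held 2.12 ± 0.659% under DRF and 9.37 ± 4.86% under NRF. The exon lengths of Serpina1a, Serpina1c and Serpina1d could not be checked at their depth either, so both sets of shares rest on them.

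**Figure D2:**
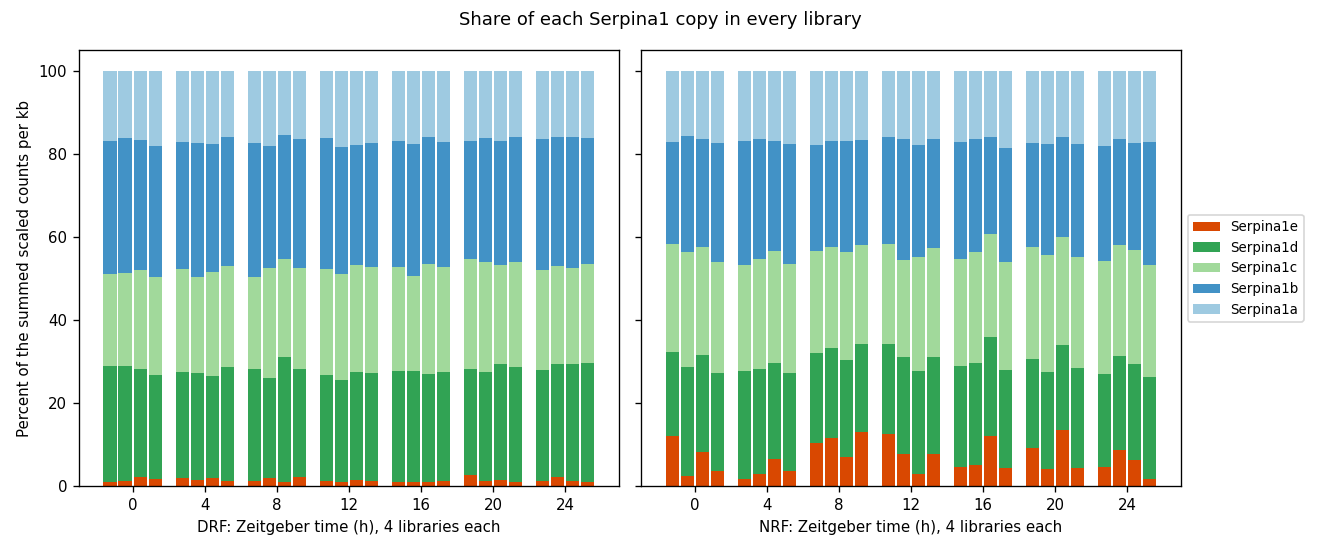
Share of each Serpina1 copy, in percent of the summed scaled counts per kb, with 1 stacked bar per library, grouped by zeitgeber time in hours (DRF left, NRF right). The Serpina1e shares of NRF livers spread from 1.77 to 13.5%, and those of DRF livers stay between 0.977 and 2.67%.

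The other alpha-1-antitrypsin copies moved little. Serpina1c had a mean of 3494 ± 359 scaled counts under DRF and 4157 ± 375 under NRF (SD, n = 28), with a log2 difference of -0.23 ± 0.04 (SE). Serpina1a had 3209 ± 246 and 3625 ± 334, with a log2 difference of -0.17 ± 0.04. In both genes the mean was lower under DRF at all 7 times, but the libraries of the regimens overlapped. Serpina1b had 6383 ± 467 and 6207 ± 507, and Serpina1d had 3873 ± 363 and 3784 ± 330, with log2 differences of 0.04 ± 0.04 and 0.03 ± 0.04, each about the size of its error. No rhythm passed in any of these 4 copies in either regimen, with adjusted p of 0.0583 to 0.611 under DRF and 0.0765 to 0.681 under NRF (limma). Serpina1c came closest, and it passed in both regimens by the combined test described further on (adjusted p = 0.0173 and 0.01004). With the values as deposited, all 4 copies passed in both regimens, as did 8900 of 25277 genes under DRF and 10896 under NRF.

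Serpina12 (ENSMUSG00000041567, chr12:104028769-104044443), the vaspin gene, was the least abundant member and was also lower under DRF. Its level ran from 0.301 to 1.88 scaled counts under DRF (median 0.864) and from 1.46 to 5.25 under NRF (median 2.64), and 26 of 28 NRF libraries were above every DRF library. The means of 0.876 ± 0.412 and 2.89 ± 0.947 (SD, n = 28) have a ratio of 3.31. On the log2(scaled count + 1) scale the difference was -0.98 ± 0.07 (SE), a scale that understates changes at such low levels. With a pseudocount of 0.1 the difference was -1.57, and with 10 it was -0.23.

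Serpina12 was rhythmic under DRF (adjusted p = 0.00185, limma), with a peak at 10.6 ± 0.79 h (SE) and a relative amplitude of 43.4%. The call was lost with a pseudocount of 10 (adjusted p = 0.0678, limma). Its 4 livers had 1.51, 1.54, 1.62 and 1.88 scaled counts at ZT12 under DRF, against 0.301, 0.368, 0.421 and 0.512 at ZT24, so these groups did not overlap. Under NRF the rhythm did not pass (adjusted p = 0.079), and the highest group was ZT0 with 2.46, 2.71, 4.22 and 5.25. It passed in 5 alternative settings, among them without NRF ZT4 replicate 2 (adjusted p = 0.0443) or NRF ZT8 replicate 4 (adjusted p = 0.0412). The difference in rhythm passed (adjusted p = 0.000258), with fitted peaks 11.4 ± 1.996 h apart. The regimen gap was accordingly narrowest at ZT12 (log2 difference -0.33 ± 0.18) and widest at ZT24 (-1.55 ± 0.18).

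Serpina3k (ENSMUSG00000058207, chr12:104338486-104346144), which encodes a kallikrein-binding inhibitor, ran from 1073 to 4625 scaled counts under DRF (median 2649) and from 1798 to 7481 under NRF (median 3707). Its means were 2641 ± 878 and 3751 ± 1110 (SD, n = 28), with a log2 difference of -0.51 ± 0.11 (SE), and the regimens overlapped broadly. Livers of 1 group could differ severalfold, as at ZT8 under DRF with 1073, 1947, 2567 and 2754, or at ZT0 under NRF with 2767, 3225, 3678 and 7481. Under DRF, Serpina3k was rhythmic (adjusted p = 0.00717, limma) with a peak at 17.8 ± 0.835 h. The 4 livers had 3066, 3382, 4305 and 4308 at ZT20 and 1555, 1815, 1943 and 2793 at ZT4. Under NRF no rhythm was detected (adjusted p = 0.484), and the difference in rhythm did not pass (adjusted p = 0.137).

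Across the list, the group mean was lower under DRF at all 7 times in Serpina1a, Serpina1c, Serpina1e, Serpina3k and Serpina12. The same 5 genes lay past the lower threshold in mean, as did 2.69% of all genes tested, and Serpina3m past the upper one, as did 4.13% (6.81% in either direction). With the values as deposited, 2 members, Serpina1e and Serpina12, lay past the threshold, as did 1396 of 25277 genes in either direction. The genes were chosen with this contrast in view, so these counts are no test and nothing is read from them. The median log2 difference was -0.20 over the 10 members and 0.00 over all genes tested. All 5 erythroid markers had higher fitted means under DRF, by 0.35 to 0.63 on the log2 scale, and their part in the serpin differences was not tested. In bulk tissue, fewer cells of a type and less RNA per cell cannot be told apart.

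**Figure D3:**
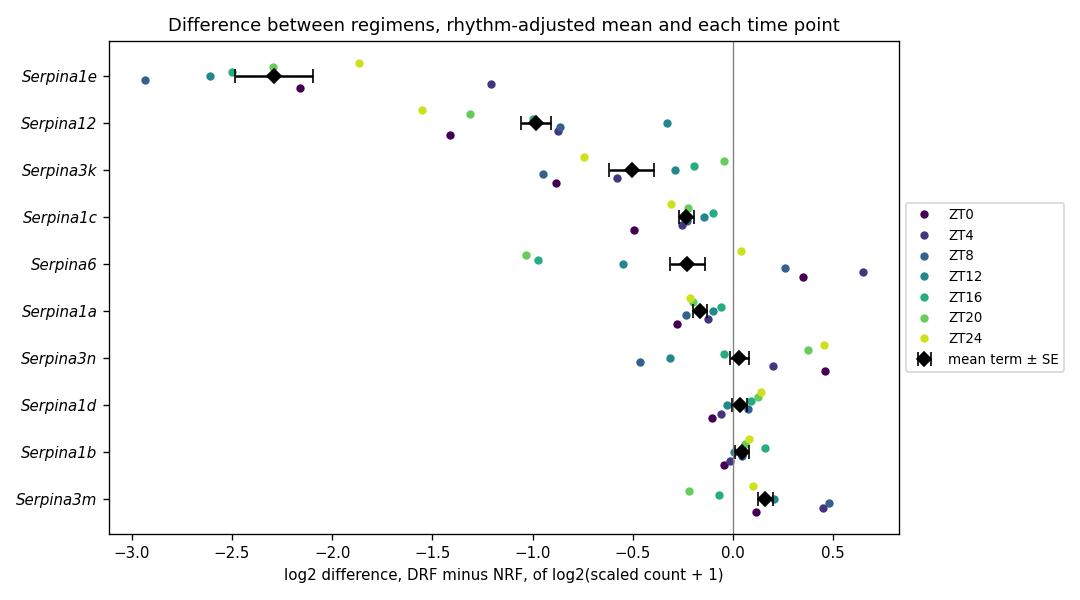
Log2 difference in mean level (DRF minus NRF, adjusted for rhythm) of each serpin A gene (black diamonds with standard errors), beside the differences at each of the 7 times (coloured points). Serpina1e stands farthest from 0 at -2.29, followed by Serpina12 at -0.98 and Serpina3k at -0.51.

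The timing of the members was then compared between regimens. Under DRF 4 of the 10 genes were rhythmic (Serpina3k, Serpina3n, Serpina6 and Serpina12), against 35.1% of all genes tested. Under NRF 3 were rhythmic (Serpina3m, Serpina3n and Serpina6), against 43.8% of all genes. The rhythm differed between regimens in 4 (Serpina3m, Serpina3n, Serpina6 and Serpina12), against 38.9%. Among the 4 genes with a different rhythm, the fitted peaks lay 5.77 to 11.4 h apart. Of these, only Serpina6 (6.70 h) and Serpina3n (10.4 h) passed the limma rhythm test in both regimens. For Serpina3m under DRF and Serpina12 under NRF, the peak was fitted to a rhythm that did not pass. The counts within a regimen depended on the processing. With the values as deposited, 8 members were rhythmic under DRF and 8 under NRF, beside 8900 and 10896 of all 25277 genes. A length correction gave 9 and 5 members, beside 11765 and 14084 of all genes. An exact Kendall rank test called 5 members under DRF (32.4% of all genes) and 3 under NRF (34.1%), and its combination with a cosinor test called 6 (43.5%) and 4 (44.8%). Both added Serpina3m under DRF, and the combination added Serpina1c in both regimens.

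Serpina6 (ENSMUSG00000060807, chr12:103646630-103657212), the glucocorticoid carrier, was rhythmic in both regimens, with wider swings than Serpina3n, the other member rhythmic in both. Under DRF its 4 livers had 400.4, 571, 662 and 744 scaled counts at ZT8 and 214, 224, 255 and 291 at ZT20. Under NRF they had 480, 588, 753 and 1024 at ZT12, 579, 669, 726 and 771 at ZT16, and 268, 280, 364 and 378 at ZT24. High and low groups did not overlap in either regimen. The rhythm passed with an adjusted p of 7.83e-06 under DRF and 2.04e-07 under NRF (limma), with relative amplitudes of 37.5% and 39.6%.

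The fitted peak of Serpina6 was at 7.24 ± 0.558 h under DRF and at 13.9 ± 0.632 h under NRF, 6.70 ± 0.843 h later (SE). The difference in rhythm passed (adjusted p = 2.36e-07), and the shift lay between the phase-locked range of 0 to 4 h and the phase-inverted range of 8 to 12 h. The sign of the regimen difference changed with time, from a log2 difference of 0.65 ± 0.23 at ZT4 to -1.03 ± 0.23 at ZT20. Over the day the log2 difference in mean was -0.23 ± 0.09.

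Serpina3n (ENSMUSG00000021091, chr12:104406729-104414329), which encodes an inhibitor of granzyme B and cathepsin G, was phase-inverted. Under DRF its livers had 235, 249, 294 and 304 scaled counts at ZT20 and 173, 192, 194 and 224 at ZT8. Under NRF they had 237, 277, 282 and 285 at ZT8 and 177, 190.4, 195 and 198 at ZT0. High and low groups were separate in each regimen, and ZT8 was a low time under DRF and the highest under NRF. Peaks were fitted at 21.7 ± 0.742 h and 11.3 ± 0.974 h, 10.4 ± 1.22 h apart (adjusted p for the difference = 2.67e-07, limma). The rhythm was of like size in both regimens, with relative amplitudes of 17.0% (adjusted p = 0.00017) and 15.8% (adjusted p = 0.000207), and the mean differed by 0.03 ± 0.05 on the log2 scale.

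Serpina3m (ENSMUSG00000079012, chr12:104338486-104394257), a close relative in the same family, had a clear rhythm under NRF. Its livers had 1547, 1550, 1853 and 2018 scaled counts at ZT16 and 1045, 1109, 1166 and 1188 at ZT8, without overlap. The rhythm passed under NRF (adjusted p = 3.6e-09, limma) with a peak at 17.4 ± 0.422 h and a relative amplitude of 23.9%. Under DRF the relative amplitude was 7.06% and the test was just missed (adjusted p = 0.0515), with group means between 1412 and 1660. The difference in rhythm passed (adjusted p = 3.05e-06), with fitted peaks 5.77 ± 1.48 h apart. At ZT8 the log2 difference was 0.48 ± 0.10 and at ZT20 it was -0.22 ± 0.10, while the rhythm-adjusted mean differed by 0.16 ± 0.04.

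**Figure D4:**
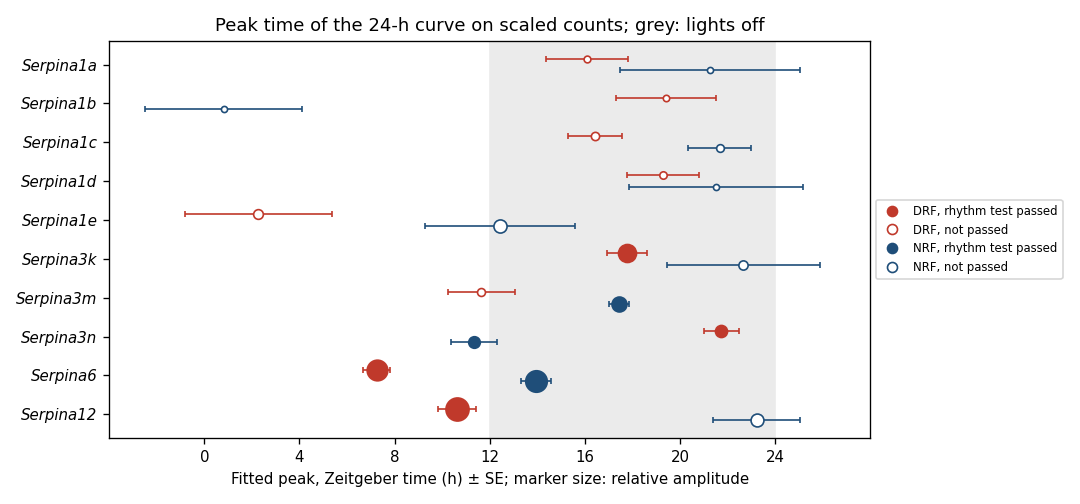
Fitted peak times in hours (ZT) of the serpin A genes under DRF (red) and NRF (blue), with standard errors, filled where the rhythm passed the test and open where it did not, and sized by relative amplitude. Serpina6 peaks 6.70 h later under NRF, and the peaks of Serpina3n lie 10.4 h apart.

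ZT0 and ZT24 fall at the same clock time and served as a check on the sampling. No member differed between them under DRF or NRF (limma), and 0 members had an unadjusted p under 0.05 in either regimen, where 3.09% and 7.88% of all genes passed the adjusted threshold. With the values as deposited, 4 members differed under DRF and 7 under NRF, beside 2299 and 6344 of all 25277 genes. At single times, differences between regimens lay past the threshold in 6 members at ZT0 (16.1% of all genes), in 4 at ZT4 (20.5% of genes), and in 5 of them at ZT8 (13.0% of genes). At ZT12 the count was 1 (15.2%), at both ZT16 (15.2%) and ZT20 (13.8%) it was 3, and for ZT24 it was 4 (14.1%). These contrasts too were in view when the genes were chosen, so the counts are no test and nothing is read from them.

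Serpina3k and Serpina6 varied in opposite directions among livers of the same group. This pair was chosen after the values were seen, and the relation is a description. Over deviations of log2 levels from the group means, Pearson's r was -0.76 under DRF and -0.90 under NRF (n = 28 libraries each), and Spearman's rho was -0.74 and -0.81. Without the 2 libraries farthest from the median of Serpina3k, r was -0.72 and -0.86. Of 6677 other genes, 3 had a lower r with Serpina6 under DRF and 0 under NRF. Libraries share depth and scaling, which the points have in common.

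**Figure D5:**
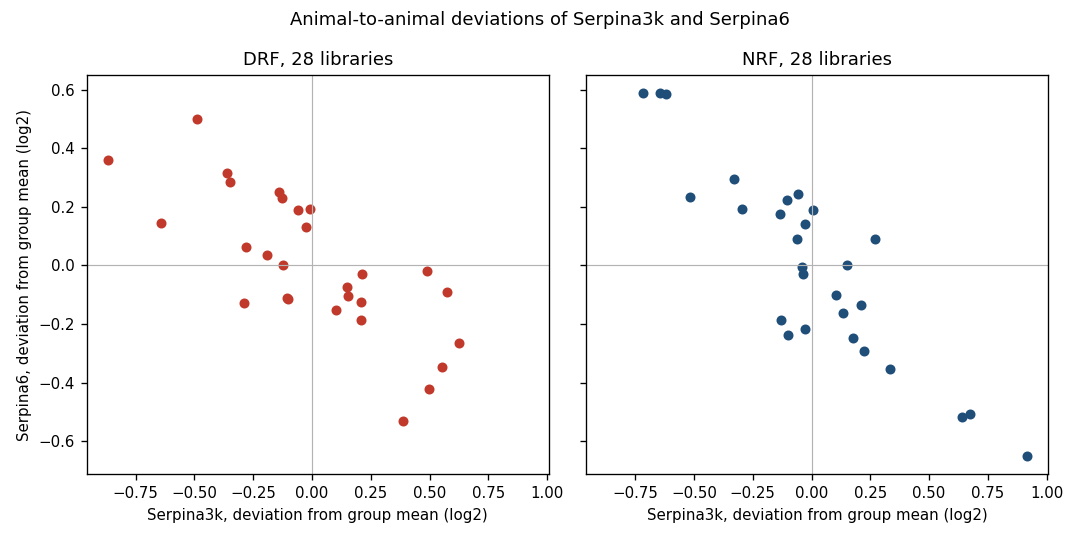
Deviations of log2 levels from the group mean for Serpina3k (x axis) and Serpina6 (y axis), with each point 1 library, DRF in the left panel and NRF in the right. Livers high in Serpina6 for their group were low in Serpina3k, with r of -0.76 under DRF and -0.90 under NRF.

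The members did not vary as a block. Over all 56 libraries, Pearson's r of log2 levels ran from -0.50 to 0.87 over the 45 pairs, with a median of 0.11. Serpina1a and Serpina1c reached 0.87 and Serpina1b and Serpina1d 0.81, pairs whose reads may be shared. Serpina1e and Serpina12 reached 0.77 over all libraries, 0.08 within DRF and 0.22 within NRF. Over deviations from the group means, which leave out time, r was 0.45 under DRF and 0.29 under NRF (n = 28 libraries each).

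Genes with the most similar patterns over the 56 libraries were sought among those with a mean of at least 10 scaled counts. For Serpina1e these were Selenbp2 (r = 0.89), Slco1a1 (0.83), an organic anion transporter, and C8a (0.83), a complement component. For Serpina12 they were Afm (0.81), Selenbp2 (0.80) and Mup3 (0.78), a major urinary protein. Within DRF and within NRF these values were lower. For Serpina1e they were 0.69 and 0.72 with Selenbp2, 0.47 and 0.68 with Slco1a1, and 0.41 and 0.71 with C8a. For Serpina12 they were 0.71 and 0.52 with Afm, 0.29 and 0.56 with Selenbp2, and 0.40 and 0.41 with Mup3. The log2 differences of Slco1a1, Selenbp2 and Mup3 were -1.86 ± 0.22, -1.17 ± 0.14 and -0.74 ± 0.08 (SE). Serpina3k was most like Cyp2c40 (0.81), C8b (0.77) and Ces3b (0.76), and Serpina6 like Inmt (0.80), Gamt (0.77) and Cyp2a5 (0.75).

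The remaining members had neighbours of other kinds. Serpina3m was most like Sar1b (0.87), Slc25a5 (0.84) and Fmo5 (0.82), and Serpina3n like Xylb (0.77), Gna12 (0.74) and Ppp2r5d (0.74). Serpina1a was most like Itih1 (0.73), Serpind1 (0.73) and Cfi (0.71), and Serpina1c like Cyp4f14 (0.73), Mup3 (0.72) and C9 (0.70). Serpina1b was most like Tomm7 (0.75), Serf2 (0.72) and Park7 (0.71), and Serpina1d like Gm2a (0.69), Mrps35 (0.66) and Msl3 (0.65). These correlations are descriptions over libraries that share regimen and time.

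Other serpins and liver genes were examined in lists. Of all genes tested, 35.1% were rhythmic under DRF and 43.8% under NRF, 38.9% differed in rhythm, and 2.69% were lower and 4.13% higher in mean under DRF. Of 12 serpin A genes outside the members that could be tested, 5 had a mean of at least 1 scaled count. Rhythm passed in 4 under DRF and in 4 under NRF, the rhythm differed in 4, and 2 were lower and 1 higher under DRF, with a median log2 difference of -0.05. Serpina3g, another antichymotrypsin relative, had its peak at 20.4 h in DRF and at 8.15 h in NRF (adjusted p for the difference = 1.16e-07, limma) at levels of 3.41 and 3.65 scaled counts. Serpina3f did likewise (22.2 h and 7.45 h, adjusted p = 1.44e-05). Serpina7, the thyroxine-binding globulin gene, peaked at 9.76 h and 5.23 h (adjusted p = 0.000137).

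Of 9 plasma serpins of other clades, rhythm passed in 6 under DRF and 4 under NRF and differed in 6, with a median log2 difference of -0.02 and 1 gene called in each direction. Serpinf2, which encodes the plasmin inhibitor alpha-2-antiplasmin, had its peak at 18.9 h in DRF and at 6.95 h in NRF (adjusted p for the difference = 9.13e-12, limma). Serpine2, which encodes a protease nexin, had peaks at 14.4 h and 20.2 h (adjusted p = 0.000704).

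Growth hormone, secreted in a sex-specific pattern, is known to act on some liver serpins, so liver genes with a sex bias set by this hormone were listed. Of 16 male-biased liver genes, 7 were lower and 0 higher under DRF, with a median log2 difference of -0.29. Rhythm passed in 6 under DRF and 5 under NRF and differed in 3, Nudt7, Elovl3 and Gstp1. Of 16 female-biased genes, 2 were lower and 7 higher under DRF, with a median of 0.24, and the rhythm passed in 8 under each regimen and differed in 8. Acot3, Cux2 and Prom1 had the smallest adjusted p for a difference in rhythm (1.59e-12, 1.85e-10 and 2.08e-09, limma). Both lists were drawn up with earlier results of these data known.

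Of 18 acute phase plasma proteins, 4 were lower and 1 higher under DRF, with a median log2 difference of -0.05. Rhythm passed in 8 under DRF and 11 under NRF and differed in 10. The fibrinogen chain genes Fgg, Fga and Fgb had peaks between 15.8 and 16.9 h in DRF and between 5.14 and 5.99 h in NRF. Of 18 regulators of serpin A or sex-biased genes, rhythm passed in 11 under DRF and 13 under NRF and differed in 13, 1 was lower and 0 were higher under DRF, and the median was -0.01. Stat5b, which carries the growth hormone signal, peaked at 14.97 h with DRF and 3.33 h with NRF (adjusted p for the difference = 1.52e-12, limma), with equal means of 196.6 scaled counts. Stat5a peaked at 9.78 h and 0.185 h, and Il6ra, the interleukin receptor gene, at 21.5 h and 12.4 h.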

How the data were processed

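Liver RNA of 56 mice, 4 per regimen and time, was prepared as ribosomal RNA-depleted, strand-specific libraries and sequenced in pairs per the protocol in the labels, whose molecule field says polyA RNA. Submitters' processing notes name CASAVA 1.8, featureCounts 1.5.0-p3 and the builds mm10 and GRCm38.p6. The aligner, the strand setting and the treatment of multiply mapped reads are not given in the sources used here. Columns of the gene and transcript tables matched the sample labels, with 0 left over. The labels give no batch or date. Replicates are different animals of 1 group, and members and lists were chosen with earlier results of these data known.

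The authors deposited values named TPM that sum to 995320 to 997990 per library but are log-compressed, so their unit is treated as a score. Each deposited score times the exon length (GENCODE vM21, GRCm38) followed a·ln(1 + f·k), with whole counts k and a factor a and scale f per library. The curve was fitted on 12123 genes and checked on 12124 others, in which 99.2% of values up to 10 counts and 96.9% up to 20000 lay within 0.05 of a whole number (10% by chance). Scaled counts f·k were analysed for 25277 genes, and 138 could not be rebuilt. Recovered counts exceed the depth the study gives, so they are not called reads, and counting intervals were not computed. For Serpina1a to Serpina1d, wholeness could not be judged at their depth, and Serpina1b was given the 1985 exon bases of the transcripts listed by the authors. With all 2415 annotated bases its level was implausible, an alternative added after seeing the data.

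In limma 3.58.1 (R 4.3.3), log2(scaled count + 1) of all 56 libraries was fitted with a mean and 24-h cosine and sine terms per regimen, with a trended prior. A model of 14 groups gave the differences at single times and ZT24 against ZT0. Benjamini-Hochberg adjustment ran over 25277 genes, with a threshold of 0.05. The script was tested on simulated data. Peak times and relative amplitudes (amplitude over mean) came from linear fits, except in the further lists, where log2 fits were used. Python 3.11.15 was used otherwise.

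Beside the 10 members, the 3 genes most like each over the libraries and at most 3 genes per list, by the smallest adjusted p for a difference in rhythm, were named. The values of 1 gene that this rule names are not reported here. Alternatives were the values as deposited, pseudocounts of 0.1 and 10, a minimum mean of 1, median-of-ratios scaling, a length correction, a replicate block, leaving out each library or ZT0 or ZT24, added 12-h terms, and a rank test. Same-numbered animals are not paired by the labels.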

Additional observations from a re-analysis of the deposited data

Results flagged for a closer look

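The rhythm differed between DRF and NRF in Serpina6 (adjusted p = 2.36e-07), Serpina3n (2.67e-07), Serpina3m (3.05e-06) and Serpina12 (0.000258), by the limma test of the difference itself.

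In 13 of 140 sets of 4 values, 1 liver stood apart from the other 3 by Dixon's criterion. The sets are 10 genes in the same 14 groups of livers and are not independent. Chance alone gives about 7, but with this dependence no excess is read from the count. For Serpina1e, NRF ZT16 replicate 3 had 2685 scaled counts against 719 to 949 in the others. For Serpina12, DRF ZT8 replicate 2 had 1.30 against 0.908 to 0.933, and NRF ZT24 replicate 3 had 5.18 against 2.43 to 2.85. For Serpina6, DRF ZT0 replicate 3 had 623 against 367 to 410, DRF ZT16 replicate 4 had 432 against 320 to 326, and NRF ZT0 replicate 1 had 220 against 395 to 407.

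Among the abundant genes the gaps were smaller. For Serpina1c, DRF ZT4 replicate 2 had 3145 (others 3339 to 3377), DRF ZT16 replicate 2 had 3223 (3912 to 4053), DRF ZT20 replicate 2 had 4550 (3617 to 3715) and DRF ZT24 replicate 3 had 3641 (3368 to 3402). DRF ZT24 replicate 3 also stood high in Serpina1b, with 7301 (6319 to 6411), and in Serpina3m, with 1634 (1322 to 1365). For Serpina1a, DRF ZT8 replicate 3 had 2832 (3388 to 3425).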

How the results depend on the processing

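With the values as deposited, 8 members were rhythmic under DRF and 8 under NRF, 2 differed in mean, both lower under DRF, 4 and 7 differed between ZT0 and ZT24 under DRF and NRF, and 17 differences at single times passed, against 26 with scaled counts. With the length correction, 9 were rhythmic under DRF, 5 under NRF, and 2 differed between ZT0 and ZT24 under DRF. The log2 difference of Serpina12 was -1.57 with a pseudocount of 0.1 and -0.23 with 10, as the pseudocount sets the scale at its low level. For the deposited values and the length correction, the cause was not tested. Over all 25277 genes, rhythm passed in 8881 under DRF and 11060 under NRF. The counts were 8900 and 10896 with deposited values, and 11765 and 14084 with the length correction. The mean differed in 1722 genes, and in 1396 with deposited values. ZT24 differed from ZT0 in 780 genes under DRF and 1993 under NRF, against 2299 and 6344 with deposited values and 6228 and 8396 with the length correction. Single times were not counted over all genes in these settings. The number of members with a different rhythm was 4 or 5 in all 10 other settings. Over all genes it was 8859 to 10010 of 25277, and 7835 of 13739 with a minimum mean of 1. No log2 difference changed sign in the settings where it was compared, 9 for most members, or with any 1 library left out. It was not compared in every setting.

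Leaving out 1 library at a time gave 4 to 6 members rhythmic under DRF, 3 to 4 under NRF, 4 to 5 with a different rhythm and 6 to 7 with a different mean. Over all 25277 genes, these fits gave 8396 to 9171, 10492 to 11448, 9541 to 10013 and 1424 to 1894. They gave 0 members different between ZT0 and ZT24 in either regimen, beside 228 to 976 genes under DRF and 697 to 2361 under NRF. At single times there were 24 to 27 differences among the members. Serpina3m crossed the threshold under DRF in 23 of all settings. Serpina1c crossed it under DRF in 11 settings, under NRF in 7 and for the difference in rhythm in 8. Serpina12 lost its rhythm under DRF with a pseudocount of 10. A replicate block changed no count of members: 4 were rhythmic under DRF, 3 under NRF and 4 differed in rhythm. Over all 25277 genes it gave 8808, 11031 and 9797. Deviations of same-numbered animals of different groups had a mean correlation of 0.0022 over 364 pairs, so the numbers mark no pairing. The values are limited by the fitted curve, whose whole counts could not be judged for Serpina1a to Serpina1d. Reads shared among the Serpina1 copies, Serpina1e included, limit them too.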
